A study of Mus musculus with 6 samples.

Results

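The genes described here encode the nuclear-encoded subunits of the mitochondrial respiratory chain and of ATP synthase, with their assembly factors. They were chosen by symbol: names beginning with Nduf, Sdhaf, Uqcr or Atp5, the Cox4 to Cox8 and Cox10 to Cox19 names, Sdha, Sdhb, Sdhc, Sdhd, Cycs and Cyc1, with 3 pseudogene names ending in -ps or -ps1 left out. This gave 97 of the 23185 named genes on the arrays: 41 of complex I, 8 of complex II, 8 of complex III, 27 of complex IV, 12 of ATP synthase and Cycs. By role they were 20 core subunits, 47 accessory subunits, 20 assembly factors, 8 isoforms that other tissues or hypoxic cells use, the supercomplex factor Cox7a2l, and the carrier cytochrome c. Ndufa4 and its paralog Ndufa4l2 were counted with complex IV, where the Ndufa4 protein is now placed. Further subunits of these complexes, those encoded by mitochondrial DNA among them, are not analysed here.

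Complex I takes electrons from NADH and complex II takes them from succinate; both pass them to ubiquinone, complex III hands them to cytochrome c, and complex IV gives them to oxygen. Complexes I, III and IV pump protons, and ATP synthase uses the gradient to make ATP. Group 2 innate lymphoid cells (ILC2s), lymphocytes that secrete type 2 cytokines, are known to use oxidative metabolism together with glycolysis, and MYC is known in many cell types as an activator of nuclear genes for mitochondrial proteins.

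The samples were an ILC2 line from C57BL/6J mice, kept in medium with 10 ng/ml each of IL-2 and IL-33. All cells, controls included, received a lentiviral CRISPR construct that carries GFP. The control group received a non-target guide RNA and the knockout group a guide RNA against Myc, and in both groups GFP-positive cells were sorted on day 6 after transduction. Each group had 3 Affymetrix arrays of total RNA, 6 in all, with log2 RMA values, and the comparison asks how targeting Myc relates to transcript levels. Whether a group's 3 arrays stem from independent cultures is not stated in the labels. Their p-values therefore reflect only the spread between these samples, and that spread may be technical. The sorted cells are a pool selected for GFP and not an edited clone, and the labels give no editing rate.

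The signal of the targeted gene Myc was higher, not lower, in arrays labelled Myc knockout, called labelled knockouts from here on. It stood at 9.27, 9.33 and 9.39 in control arrays and at 9.55, 9.79 and 9.73 in the others, without overlap. The difference was 0.36 ± 0.080 SE on the log2 scale (limma's unadjusted p = 0.00329, adjusted p = 0.127). An edited transcript need not be less abundant, so this is a weak check of the labels, and every direction below rests on them. Of 12 measured ILC2 markers, 11 lay at or above the median gene (3.34), Thy1 being below it. Il5 was higher in the labelled knockouts (0.49 ± 0.061, adjusted p = 0.0386 in limma). Il2ra, Kit, Icos and Il13 were also higher without overlap of the groups, and Gata3, Il7r and Ptprc lower. The groups did not overlap for 19.8% of all genes and 29.4% of genes at or above the median gene. Of the markers of other cells, 2 of 6 for T cells (Cd3g and Cd8a), 1 of 3 for B cells (Pax5), 1 of 5 for NK cells and ILC1s (Prf1), 0 of 2 for ILC3s, 1 of 4 for myeloid cells (Itgam) and 1 of 3 for mast cells (Mcpt1) lay at or above it. The average level of the T cell markers was 3.24 to 3.34 in control arrays and 3.13 to 3.28 in the labelled knockouts. Cd3e was at 2.15 in control arrays. Cd3g differed by −0.43 ± 0.13 without overlap (adjusted p = 0.22 in limma) and Cd8a by 0.20 ± 0.15. Of the 4 myeloid markers, Itgam, an integrin gene, differed by −0.63 ± 0.10 without overlap (adjusted p = 0.0767 in limma) and Cd14 by −0.18 ± 0.12. Csf1r and Adgre1, dim at 2.24 and 1.66 in control arrays, differed by −0.0055 ± 0.096 and 0.12 ± 0.076, so the lower average of these markers (3.11 to 3.33 against 3.38 to 3.43) came mainly from Itgam. Its part in the values below was not tested. Array medians lay between 3.27 and 3.34 and lower quartiles between 2.04 and 2.13. Upper quartiles were 5.78, 5.76 and 5.76 in control arrays and 5.69, 5.74 and 5.73 in the labelled knockouts, without overlap. The part of this shift in the small differences below was not tested. In bulk samples, fewer cells of a type and less RNA per cell cannot be told apart.

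The respiratory chain and ATP synthase genes differed little between the groups. Of the 97, 0 rose and 0 fell over all genes (limma, Benjamini-Hochberg adjusted p under 0.05), where 0.453% of the 23185 genes passed, 0.254% higher and 0.198% lower. The smallest adjusted p was 0.0814, for Uqcr11. At an unadjusted p under 0.05, 3 members were higher, where 6.97% of all genes were, and 4 were lower, where 7.91% were. Together these are 7.22% of the members, against 14.9% of all genes and 21.5% of genes at or above the median gene. The groups did not overlap for 5 members that were higher (9.25% of all genes) and 12 that were lower (10.6% of all genes). Together these are 17.5% of the members, against 19.8% of all genes. Among the 87 members at or above the median gene the share was 19.5%, against 29.4% of all such genes. The median log2 difference, labelled knockouts minus control, was −0.026 over the members and 0.0077 over all genes. Over members at or above the median gene it was −0.035, close to the −0.030 of all such genes. The members' median was −0.0099 without labelled knockout 3 and −0.046 without labelled knockout 2. It was −0.0053 under cyclic loess (all genes 0.0043) and −0.052 under median centring, which also turned the median of all genes to −0.017. Without control replicate 1 the lower count at that p was 2 and without control replicate 2 it was 1; the higher count was 1 without control replicate 3 and also 1 when labelled knockout 2 was left out. Under median centring the counts were 1 higher and 9 lower, with the intensity trend 3 and 8, and among brighter genes alone 3 and 7. Each fit without 1 array called 0 to 2 genes in all, against 105 with all 6.

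For the brighter probe sets, the intervals bound how far a gene's signal can have differed. Of the 87 members at or above the median gene, 82 had a 95% confidence interval within a 1.5-fold change in either direction (94.3%, against 90.3% of all such genes), and 60 within 1.25-fold (69.0%, against 53.5%). Over all 97 members these counts were 90 (92.8%, against 88.9% of all genes) and 65 (67.0%, against 49.7%). They include dim probe sets such as Cycs and Ndufb3, for which a narrow interval gives no bound on the transcript. Some of the 87 lie only a little above the median gene (3.34). Sdhaf4, Cox6a2, Ndufa11 and Cox6c, for example, had means of 3.47, 3.63, 3.80 and 3.96. For such probe sets too, a narrow interval may not bound the transcript. The 7 intervals that reached past 1.5-fold belonged to Cox7a2l, Ndufa7, Ndufb11, Ndufv3, Cox7b, Cox5b and Uqcr11. RMA gives all arrays the same distribution of intensities before probe sets are summarised. A loss or gain shared by all transcripts would therefore not appear in these values.

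**Figure D1:**
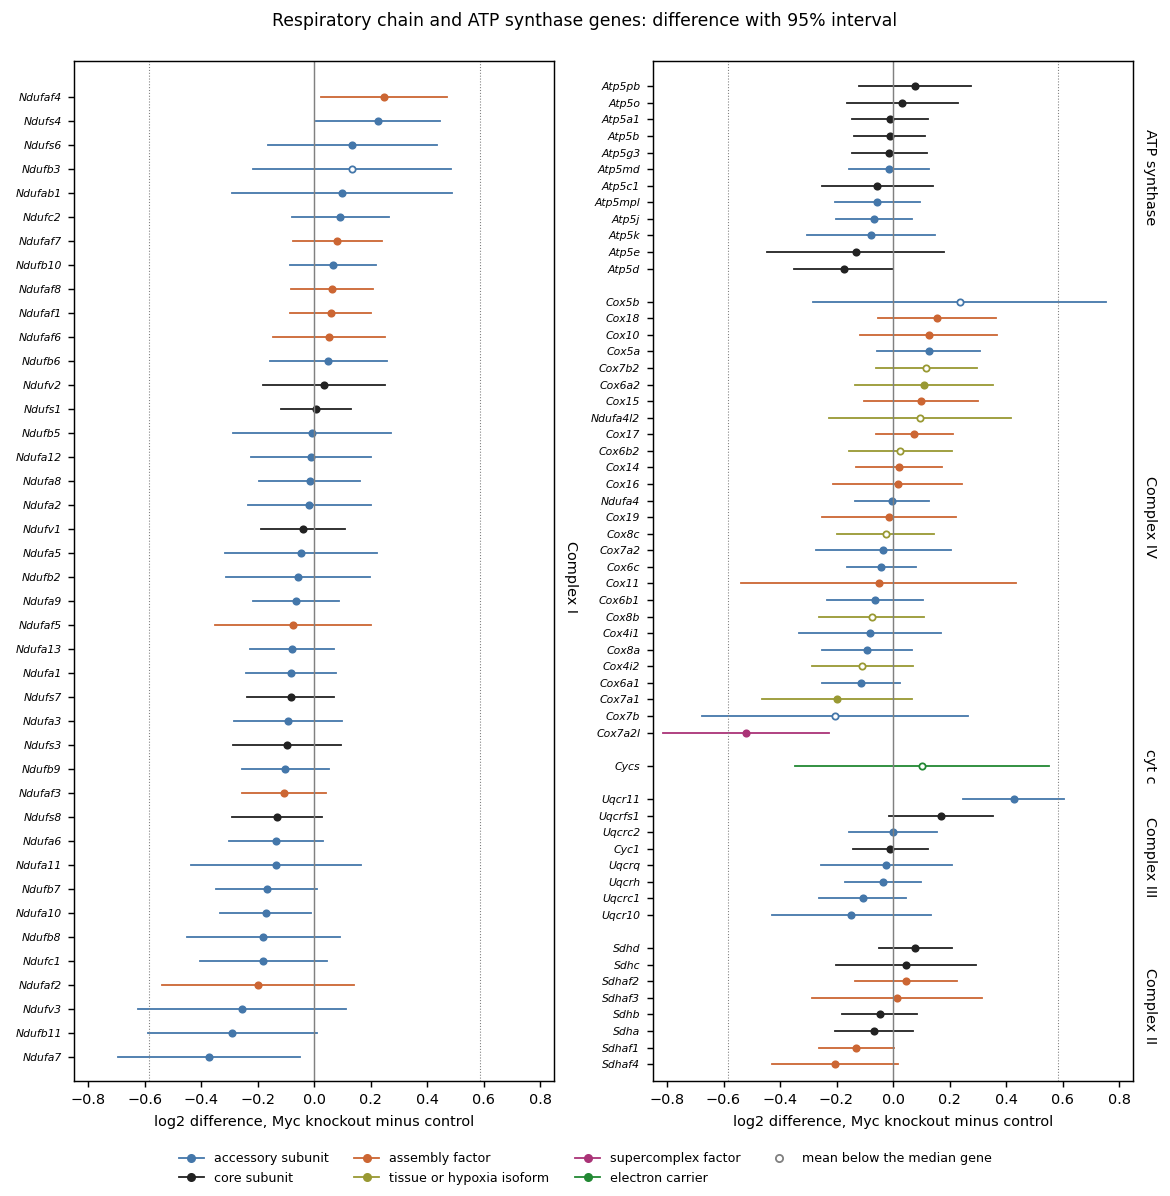
Log2 difference (labelled knockouts minus control, x axis) of each of the 97 genes with its 95% interval from limma, complex I on the left and the others on the right, coloured by role; open circles mark genes whose mean was below the median gene, and dotted lines mark 1.5-fold. Most intervals cross 0, with the points of Uqcr11 and Cox7a2l farthest from 0, and 90 lie between the dotted lines.

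The 2 members farthest from 0 were Uqcr11 and Cox7a2l. Uqcr11 encodes a small accessory subunit of complex III. It stood at 5.32, 5.15 and 5.22 in control arrays and at 5.58, 5.63 and 5.75 in the labelled knockouts. Every labelled knockout was above every control array, by 1.35-fold on average (95% interval 1.19 to 1.52, log2 difference 0.43 ± 0.075 SE, n = 3 per group), with limma's unadjusted p = 0.000887 and adjusted p = 0.0814. It passed where an intensity trend was put in the prior variance (adjusted p = 0.0453 in limma, where 1.6% of all genes passed) and where only genes at or above the median gene were fitted (adjusted p = 0.0269 in limma, where 4.74% passed). It did not pass when any single array was left out, with adjusted p between 0.154 and 0.251.

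Cox7a2l encodes the factor that joins complexes III and IV into supercomplexes, and C57BL/6J mice are known to carry a shortened form of it. Its values were 5.03, 4.94 and 4.97 in control arrays and 4.19, 4.66 and 4.53 in the labelled knockouts. The groups did not overlap, and replicate 1 of the knockout group was the lowest. The controls were 1.43-fold higher (95% interval 1.17 to 1.76, log2 difference −0.52 ± 0.12), with limma's unadjusted p = 0.00443 and adjusted p = 0.144. Without that array the log2 difference was −0.38. For either gene the exact permutation test, two-sided, gave 0.1 as its p, which is the smallest that 3 against 3 arrays allow.

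The sequences before the starts of these 2 genes are shown because they differed most and in opposite directions. They are the 250 bases before the annotated start, from RefSeq on GRCm38.p6, with any match to the motifs named further on in capitals.
Uqcr11 promoter, chr10:80406822-80407071, minus strand: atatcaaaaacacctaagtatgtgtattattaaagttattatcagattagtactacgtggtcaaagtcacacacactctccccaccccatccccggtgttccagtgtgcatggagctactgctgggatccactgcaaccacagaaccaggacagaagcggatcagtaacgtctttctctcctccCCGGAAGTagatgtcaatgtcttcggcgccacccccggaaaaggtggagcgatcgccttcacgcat
Cox7a2l promoter, chr17:83514334-83514583, minus strand: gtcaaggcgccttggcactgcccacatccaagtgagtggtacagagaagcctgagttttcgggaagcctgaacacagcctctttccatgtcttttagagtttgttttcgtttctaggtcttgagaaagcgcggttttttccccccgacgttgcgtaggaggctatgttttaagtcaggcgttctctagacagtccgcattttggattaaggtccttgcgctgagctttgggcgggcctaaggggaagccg
The Uqcr11 stretch holds 1 match to the ETS motif CCGGAAGT, centred 62 bases before the start. The Cox7a2l stretch holds no match to the motifs searched.

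**Figure D2:**
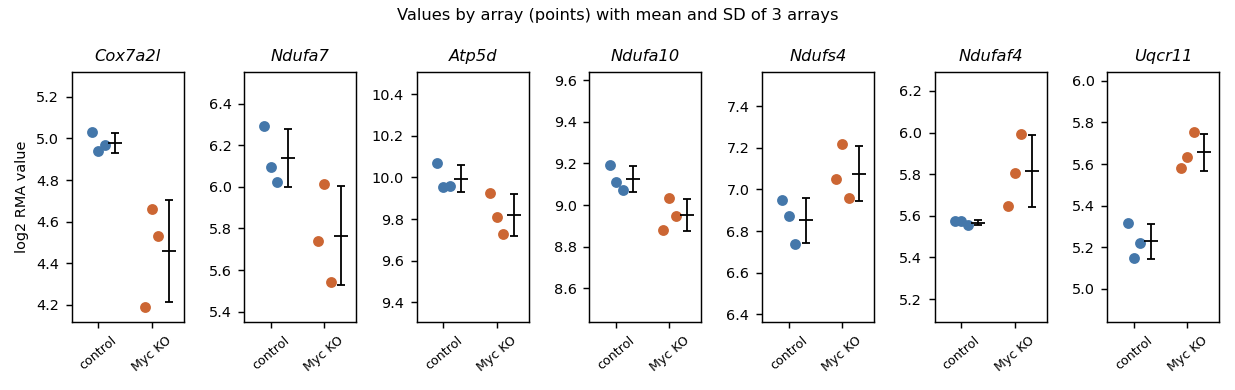
Log2 RMA values of the 7 genes with an unadjusted p under 0.05, one panel per gene, each point an array (blue control, orange labelled knockouts), with the mean and SD of 3 arrays beside them; every panel spans the same log2 range but is centred on its own gene. The groups do not overlap in any panel, and the gap is widest for Cox7a2l and Uqcr11.

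Complex I was the largest group, and 27 of its 41 genes had negative differences, with a median of −0.058. That is 65.9%, against 58.0% of genes at or above the median gene, where 40 of the 41 lie. The complex I median was −0.028 without control replicate 2, −0.034 without labelled knockout 3 and −0.017 under cyclic loess. At an unadjusted p under 0.05, Ndufaf4 and Ndufs4 were higher and Ndufa7 and Ndufa10 lower. These are 9.76% of the 41, against 14.9% of all genes and 21.5% of genes at or above the median gene. Ndufa7, an accessory subunit gene, was at 6.29, 6.10 and 6.02 in control arrays and 5.74, 6.02 and 5.54 in the labelled knockouts. Control replicate 3 and replicate 2 of the knockout group were nearly level, so the groups barely separated (log2 difference −0.37 ± 0.13, limma's adjusted p = 0.284). Ndufa10, also an accessory subunit gene, was at 9.19, 9.11 and 9.07 against 8.88, 9.03 and 8.95. These groups too lay side by side without overlap (−0.17 ± 0.067, adjusted p = 0.308 in limma).

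Ndufs4 encodes an accessory subunit whose loss in mice is a model of Leigh syndrome. Its values were 6.95, 6.87 and 6.74 in control arrays and 7.05, 7.22 and 6.96 in the labelled knockouts (0.22 ± 0.092, adjusted p = 0.326 in limma). Ndufaf4, a complex I assembly factor gene, was at 5.57, 5.57 and 5.55 in control arrays and 5.64, 5.81 and 5.99 in the other group. The controls lay close together and the knockout arrays spread widely above them (0.25 ± 0.093, adjusted p = 0.298 in limma). Under median centring neither Ndufs4 nor Ndufaf4 kept an unadjusted p under 0.05 (0.0835 and 0.0655).

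The 6 measured core subunit genes of complex I, among them genes of subunits that hold the flavin and iron-sulfur clusters, had differences from −0.13 to 0.035. All 6 had intervals within 1.25-fold. Ndufs1, the gene of the largest subunit, was at 7.32 ± 0.027 in control arrays and 7.32 ± 0.019 in the labelled knockouts. Ndufv1, which carries the flavin that accepts electrons from NADH, differed by −0.041 ± 0.062. Ndufs8 was the core gene farthest from 0 (−0.13 ± 0.066), and its groups did not overlap, with adjusted p = 0.404 in limma. Among accessory genes, Ndufb11 and Ndufb7 differed by −0.29 ± 0.12 and −0.17 ± 0.074, and Ndufc2 by 0.092 ± 0.071, none past the threshold. Ndufs7, the brightest complex I probe set, differed by −0.084 ± 0.064. Ndufb3 was at 1.37 in the controls, under the lower quartile of the arrays, so its value cannot show a lack of change.

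Complex II, succinate dehydrogenase, had differences near 0 in all 4 subunit genes. Sdha, the flavoprotein gene, stood at 8.65, 8.73 and 8.63 in control arrays and 8.57, 8.61 and 8.63 in the labelled knockouts. Those values interleave (−0.068 ± 0.057). Sdhb, the iron-sulfur subunit gene, differed by −0.047 ± 0.055. The membrane anchor genes Sdhc and Sdhd differed by 0.046 ± 0.10 and 0.080 ± 0.054. For Sdhd the 3 knockout values, 8.38, 8.39 and 8.36, lay above the controls at 8.34, 8.30 and 8.25, but the adjusted p was 0.532 in limma. All 4 intervals were within 1.25-fold.

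The assembly factor genes of complex II split in sign. Sdhaf1, whose product helps put iron-sulfur clusters into SDHB, was at 4.91 ± 0.034 in control arrays and 4.78 ± 0.041 in the labelled knockouts without overlap (adjusted p = 0.345 in limma). Sdhaf4 differed by −0.21 ± 0.093 (adjusted p = 0.365 in limma). Sdhaf2, the factor that helps attach the flavin to SDHA, and Sdhaf3 differed by 0.045 ± 0.075 and 0.013 ± 0.13.

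Complex III held the member with the smallest p, Uqcr11, while its other 7 genes had differences between −0.15 and 0.17. Uqcrfs1, which encodes the Rieske iron-sulfur protein, was at 5.20, 5.37 and 5.14 in control arrays and 5.45, 5.40 and 5.37 in the labelled knockouts. The highest control and the lowest knockout array were nearly equal, and the difference of 0.17 ± 0.076 gave limma's adjusted p = 0.362. Cyc1, the cytochrome c1 gene, and Uqcrc2, a gene of the matrix-side core proteins, differed by −0.0094 ± 0.055 and 0.00049 ± 0.065. Uqcrc1, the partner of Uqcrc2, differed by −0.11 ± 0.064, and Uqcr10 by −0.15 ± 0.12. Uqcrh and Uqcrq differed by −0.035 ± 0.057 and −0.024 ± 0.096.

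Cycs, the gene of cytochrome c, gave values of 2.46, 2.10 and 1.73 in control arrays and 2.39, 2.10 and 2.10 in the labelled knockouts. These lie around the lower quartile of the arrays, so the probe set cannot show whether cytochrome c mRNA differed.

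In complex IV, cytochrome c oxidase, no gene apart from Cox7a2l had an unadjusted p under 0.05. That is 3.7% of its 27 genes, against 14.9% of all genes and 21.5% of genes at or above the median gene. Of the 27, 19 lie at or above it. The complex had 15 negative and 12 positive differences. The negative share was 55.6%, against 47.8% of all genes and 58.0% of genes at or above the median gene. The median of the complex was −0.015. That median lay between −0.038 (without labelled knockout 2) and 0.016 (without labelled knockout 1) when 1 array was left out, and was −0.040 under median centring and 0.0072 under cyclic loess. Cox6a1, the isoform gene used outside muscle and the brightest probe set among all 97, stood at 11.55, 11.52 and 11.45 in control arrays and 11.39, 11.42 and 11.35 in the labelled knockouts. Its groups did not overlap, but the difference was only −0.11 ± 0.058 (adjusted p = 0.405 in limma). Cox4i1 differed by −0.082 ± 0.11, Cox6b1 by −0.064 ± 0.070, Cox7a2 by −0.035 ± 0.10 and Cox8a by −0.092 ± 0.067. Cox5a, on the other side, differed by 0.13 ± 0.076. Ndufa4 was level, at 8.54 ± 0.029 and 8.54 ± 0.037.

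Of the 8 alternative isoform genes of complex IV, 6 lay below the median gene in both groups. Cox4i2, a lung isoform that HIF is known to induce, was at 3.22 and 3.11, and Ndufa4l2, a HIF target that lowers complex I activity, at 2.09 and 2.19, both below the median gene. The testis or muscle isoform genes Cox6b2, Cox7b2, Cox8b and Cox8c made up the rest of these 6. Cox6a2 and Cox7a1, known from heart and skeletal muscle, were above it at 3.57 and 4.17 in the controls. Cox7a1 differed by −0.20 ± 0.11 with groups that did not overlap (adjusted p = 0.450 in limma), and Cox6a2 by 0.11 ± 0.10. Cox5b and Cox7b, which respiring cells generally use, were at only 2.40 and 2.45 in the controls, so these probe sets cannot show a lack of change either.

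Assembly factor genes of complex IV leaned to positive differences, 6 of 8, with a median of 0.048. Of genes at or above the median gene, where all 8 lie, 58.0% were negative. This lean was not tested. Cox18, which helps insert a subunit made inside mitochondria into the membrane, differed by 0.16 ± 0.087. Cox17, a copper chaperone gene, was at 7.77 ± 0.056 and 7.85 ± 0.017. Cox10 and Cox15, which make heme A, differed by 0.13 ± 0.10 and 0.10 ± 0.084. None passed, and the smallest adjusted p of the 8 was 0.446 in limma.

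ATP synthase genes differed little, with all 12 intervals within 1.5-fold and 10 within 1.25-fold. Atp5a1 and Atp5b, which encode the alpha and beta subunits, differed by −0.011 ± 0.056 and −0.012 ± 0.053. Atp5b was at 10.78, 10.73 and 10.71 in control arrays and 10.73, 10.72 and 10.73 in the labelled knockouts. Atp5g3, one of the c-ring genes, differed by −0.013 ± 0.055; Atp5g1 and Atp5g2 are not analysed here. Small negative differences were nonetheless frequent, 10 of 12, with a median of −0.035, where 58.0% of brighter genes were negative. That median was −0.011 without labelled knockout 3, −0.018 without control replicate 2 and −0.063 without labelled knockout 2, and −0.060 under median centring. Replicate 3 of the labelled knockouts was the lowest array over these genes.

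Atp5d, the delta subunit gene of the rotating stalk, was the ATP synthase gene with the smallest p. It was at 10.07, 9.96 and 9.96 in control arrays and 9.92, 9.81 and 9.73 in the labelled knockouts, without overlap (−0.18 ± 0.073, adjusted p = 0.336 in limma). Atp5e, the epsilon subunit gene of the same stalk, differed by −0.13 ± 0.13. Of the peripheral stalk genes, Atp5pb and Atp5o differed by 0.078 ± 0.083 and 0.033 ± 0.082 and Atp5j by −0.066 ± 0.056. Atp5mpl, a gene of a small membrane subunit, differed by −0.055 ± 0.063.

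Sorted by role and not by complex, the members that are accessory subunit genes leaned lower and the 20 that are assembly factor genes leaned higher. Of 47 accessory subunit genes, 36 had negative differences (76.6%, median −0.058). Of 20 assembly factor genes, 13 had positive differences and 35.0% negative ones (median 0.032). The 37 further assembly factor genes, outside the members, did not share this lean, with 16 positive and 21 negative differences (56.8% negative, median −0.023). Core subunit genes had 13 of 20 negative (median −0.012). Over all genes 47.8% were negative, and over genes at or above the median gene 58.0%. These roles were compared after their values were seen, and the lean of the signs was not tested. Under cyclic loess the accessory count was 30 negative of 47, against 49.5% of the brighter genes, and the assembly factor count 14 positive of 20. Under median centring the assembly factors were 10 positive of 20 (median 0.0073), against 64.3% negative among brighter genes. With labelled knockout 2 left out they were also 10 of 20 (median −0.0015), and leaving out replicate 3 instead, the accessory count was 29 of 47 (median −0.024).

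**Figure D3:**
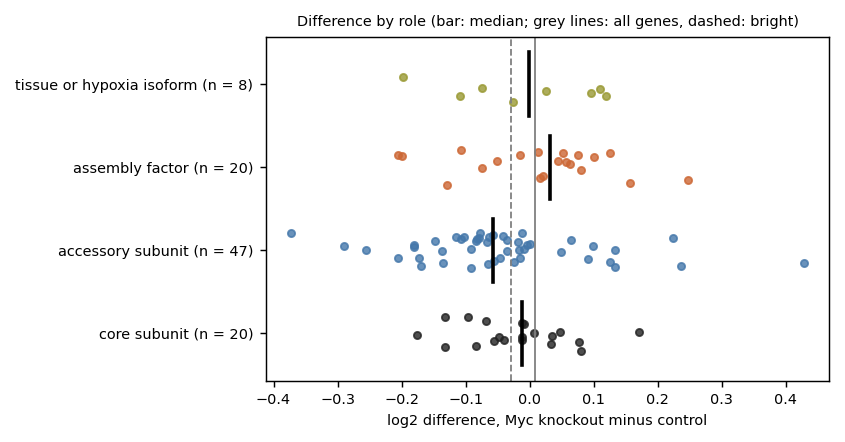
Log2 differences (labelled knockouts minus control, x axis) of single genes grouped by role (y axis; vertical scatter within a row has no meaning; Cox7a2l and Cycs, alone in their roles, are left out), with black bars at the group medians. Grey lines mark the median of all genes (0.0077, solid) and of genes at or above the median gene (−0.030, dashed); the accessory median (−0.058) lies left of both and the assembly factor median (0.032) right of both.

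Single arrays shifted these genes together by amounts like the difference between the groups. The median deviation of the 97 genes from their own means was 0.0026, 0.050 and −0.0099 in control arrays and −0.010, 0.016 and −0.044 in the labelled knockouts. Control replicate 2 was the highest and replicate 3 of the knockout group the lowest, with the other arrays mixed between them. For complex I, these 2 arrays stood at 0.070 and −0.067, and for ATP synthase at 0.032 and −0.085. The part of this array spread in the signs described above was not tested.

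**Figure D4:**
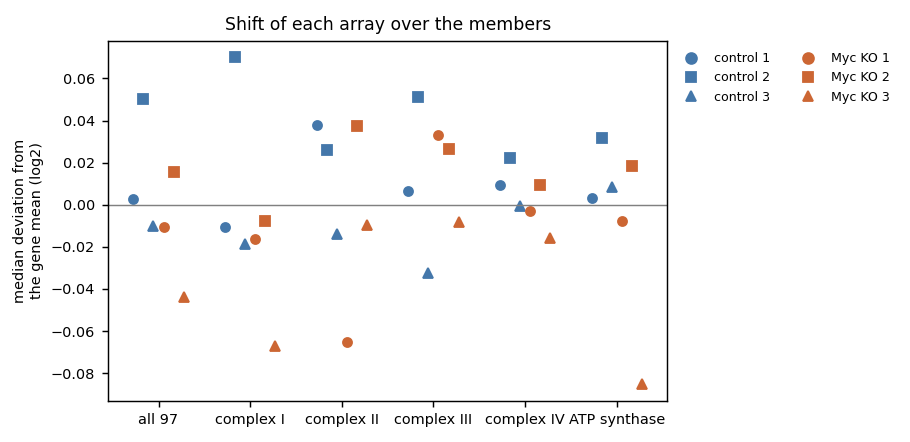
Median deviation of each array (symbols; blue control, orange labelled knockouts) from the gene means over all 97 genes and over each complex (x axis), on the log2 scale (y axis). Control 2 and knockout 3 lie at the ends for all 97 genes, complexes I and IV and ATP synthase, and the groups interleave in every column.

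Other genes that serve the chain also gave no call, with 0 past the adjusted threshold in each of 7 lists. Of 37 further assembly factor genes, an unadjusted p under 0.05 was reached by 3 that were higher and 3 that were lower. These are 16.2%, against 14.9% of all genes and 21.5% of genes at or above the median gene, where 35 of the 37 lie. Timmdc1, a complex I assembly factor gene, was at 7.01, 7.01 and 6.99 in control arrays and 7.38, 7.45 and 7.26 in the labelled knockouts. These values separated clearly (0.36 ± 0.066, limma's adjusted p = 0.0889), and Timmdc1 passed with the intensity trend (adjusted p = 0.0386 in limma) and among brighter genes alone (adjusted p = 0.0300 in limma), but not when any single array was left out (0.146 to 0.255). Higd1a, a hypoxia-induced gene whose product binds complex IV, was at 4.22, 3.98 and 3.83 in control arrays and 3.05, 3.56 and 3.03 in the other group. Its groups did not overlap (−0.79 ± 0.17, adjusted p = 0.116 in limma), and it passed among brighter genes alone (adjusted p = 0.0436 in limma), but not when any single array was left out (0.119 to 0.298).

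Of 8 genes known as HIF targets that act on respiration, a list that also holds Higd1a, Cox4i2 and Ndufa4l2, 7 had negative differences with a median of −0.14, and 4 were lower at an unadjusted p under 0.05. Besides Higd1a these were Bnip3 (−0.32 ± 0.074) and Bnip3l (−0.17 ± 0.067), which act in mitophagy, and Pdk1 (−0.29 ± 0.084), whose kinase inhibits pyruvate dehydrogenase. They were named as examples after their values were seen, and their adjusted p lay between 0.116 and 0.319 in limma. The 7.91% of all genes that were lower at that p is the share to set beside these 4. Of genes at or above the median gene, 21.5% had such a p in either direction. Negative differences made up 47.8% of all genes and 58.0% of genes at or above the median gene. The lean of the 8 was not tested.

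The nuclear regulators of mitochondrial biogenesis differed little. Of 18 measured, 0 higher ones and 1 lower one had an unadjusted p below 0.05 (5.56%, against 14.9% of all genes), with a median of −0.010. The lower one was Polg, the mitochondrial DNA polymerase gene (−0.25 ± 0.081, adjusted p = 0.250 in limma). Mterf3, a repressor of mitochondrial transcription, had the smallest p among the higher ones at 0.064 ± 0.064. Of 12 tricarboxylic acid cycle genes, all at or above the median gene, 10 had positive differences (median 0.053). Of all genes at or above the median gene, 58.0% were negative (median −0.030), and this lean was not tested. At an unadjusted p below 0.05, 2 of the 12 were higher and 1 lower. That is 25%, against 14.9% of all genes and 21.5% of genes at or above the median gene. Idh3a and Idh3g, subunits of one dehydrogenase, differed in opposite directions, by 0.24 ± 0.063 and −0.15 ± 0.059, each without overlap (adjusted p = 0.173 and 0.320 in limma).

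Around ubiquinone, single genes differed in both directions. Of 12 coenzyme Q synthesis genes, all at or above the median gene, 1 higher and 1 lower gene had an unadjusted p below 0.05. That is 16.7%, against 14.9% of all genes and 21.5% of genes at or above the median gene. The 2 were Coq4 (0.27 ± 0.10) and Coq8b (−0.22 ± 0.055), with adjusted p = 0.304 and 0.159 in limma. Of 8 genes of other electron donors, 7 had positive differences, and only Gpd2 had such a p (12.5%, against 14.9% of all genes). Gpd2, the mitochondrial glycerol phosphate dehydrogenase gene, was at 7.55, 7.58 and 7.57 in control arrays. It was at 7.71, 7.84 and 7.95 in the labelled knockouts (0.27 ± 0.074, adjusted p = 0.186 in limma). Etfdh, the only negative one, differed by −0.11 ± 0.065. Of 8 genes of carriers, uncoupling proteins and porins, 7 had positive differences (median 0.096) and 0 had such a p. The phosphate carrier gene Slc25a3, the only negative one, differed by −0.088 ± 0.071. The dim adenine nucleotide carrier gene Slc25a31 differed by 0.19 ± 0.11.

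Promoter windows (250 bases before to 50 after an annotated start, RefSeq, GRCm38.p6) were found for 79 of the 97 genes, 85 windows in all. Motifs were searched on both strands: GCGCA, any base and GCGC for NRF1, CCGGAAGT for ETS factors such as GABP, AAGATGGCG for YY1, and the E-box CACGTG, which MYC and other bHLH factors bind; no matches of different motifs overlapped. The NRF1 motif stood in 21.2% of the members' windows, against 4.6% of all 32851 windows and 6.8% of those of protein-coding genes on the arrays. For YY1 these shares were 9.41%, 1.4% and 1.95%, and for ETS 9.41%, 3.89% and 5.38%. The E-box was in 5.88%, against 7.15% and 8.19%. A match is a description of the letters, and base composition, which was not matched, also sets these shares.

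Since Myc was the targeted gene, the 4 members with an E-box are shown, each as 30 bases with the E-box in capitals.
Ndufa7 E-box, chr17:33824488-33824517, plus strand: gcggagaggagtCACGTGagcaggggatgc
Ndufv1 E-box, chr19:4012907-4012936, minus strand: agcagagggcgaCACGTGagcctggtttac
Atp5g3 E-box, chr2:73911547-73911576, minus strand: acccctgcctggCACGTGcaaggagcgagg
Atp5pb E-box, chr3:105959484-105959513, minus strand: aCACGTGgtgtacctctgcgcaaccgcccc
The E-box of Ndufa7 was centred 69 bases before the nearer annotated start, in a stretch that also lies in the neighbouring gene Rps28, and that of Atp5pb lies in the neighbouring gene Wdr77. Ndufa7 was the only 1 of the 4 with an unadjusted p under 0.05. Such a p was found for 14.9% of all genes and 21.5% of genes at or above the median gene. Ndufv1, Atp5g3 and Atp5pb differed by −0.041, −0.013 and 0.078, on both sides of 0.

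Sites of the other motifs are given for 4 genes of different complexes and signs, with the match in capitals.
Ndufaf4 NRF1, chr4:24897960-24897989, plus strand: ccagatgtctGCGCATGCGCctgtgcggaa
Atp5k NRF1, chr5:108434430-108434459, minus strand: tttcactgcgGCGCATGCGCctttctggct
Sdhd NRF1, chr9:50603909-50603938, minus strand: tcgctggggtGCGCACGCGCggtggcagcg
Ndufs4 YY1, chr13:114388045-114388074, minus strand: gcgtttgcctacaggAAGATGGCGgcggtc
The Sdhd and Atp5k sites lie past the near edge of a neighbouring annotated gene, Timm8b and Gm34319. At Ndufaf4 the neighbouring gene Gm46848 reaches across the start. The Ndufs4 match is centred 39 bases after its start. The 17 members with an NRF1 match had differences from −0.21 to 0.25, 12 negative and 5 positive. The 8 with an ETS match had 3 negative and 5 positive, the 8 with a YY1 match 4 of each, and the 45 with no match 30 negative and 15 positive. Another annotated gene reached into the 250 bases before the start for 33 of the 79 genes, such as Gabpa, a subunit gene of GABP, at Atp5j and Timm8b, a mitochondrial import gene, at Sdhd.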

How the data were processed

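Total RNA of 6 samples was measured on Affymetrix arrays. The deposited values are log2 intensities from RMA (background subtraction, equal distributions across arrays, 1 value per probe set), per the submitters' processing notes, which also name limma 3.14.4. How probe sets were defined, and on which array version and genome build, is not stated in the labels. The number of arrays, 3 per group, limits the precision.

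Probe set identifiers are gene numbers; a platform table gave 1 symbol for 23185 of 25206 probe sets, several for 0 and none for 2021. All 97 members kept their symbol in RefSeq's GRCm38.p6 table. That table lists pseudogenes of Atp5c1, Atp5k, Atp5pb, Cox5b, Cox6c, Cycs, Ndufa11, Ndufa12, Ndufab1, Ndufs6 and Uqcrh, with which a probe set can share sequence, so their values are uncertain.

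Groups came from sample titles. Differences were fitted over all named genes with limma 3.58.1 in R 4.3.3 (lmFit and eBayes, no covariate, two-sided, arrays labelled Myc knockout minus control). Passing means a Benjamini-Hochberg adjusted p under 0.05. Values are means ± SD of 3 arrays, differences ± SE. The rule named Myc, up to 4 genes per direction and complex by p, the brightest and dimmest of each complex, isoform families, Cycs, Cyc1 and the Sdh subunits, and 1 gene per direction of each other list; others are examples chosen after their values were seen. The members and lists were chosen with earlier results of these data known. Of the 8 other lists, 7 had measured genes. The procedure was tested on 20 simulated sets of 23185 independent genes with 200 changed: for this comparison the share recovered was 36.4% for log2 changes of 0.5, 86.0% for 1 and 97.4% for 2, and 4.70% of calls were false. Alternatives covered prior variance, array weights, scaling, filters, pairing, thresholds and each array left out; sign counts by role were added after the data were seen. Figures used matplotlib 3.10.9.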

Additional observations from a re-analysis of the deposited data

How the results depend on the processing

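With 3 arrays per group, 36.4% of simulated log2 changes of 0.5 were recovered for this comparison, and most differences here were smaller. The replicate numbers did not pair the arrays (correlations of deviations −0.070, −0.012 and −0.017 over all genes); with replicate number as a block, 0 members and 0 of all 23185 genes passed, while 4 higher and 3 lower members had an unadjusted p below 0.05. The count of members past the threshold was 1 higher (Uqcr11) and 0 lower with an intensity trend, and likewise among genes at or above the median gene; it was 0 and 0 in every other setting run. This says nothing of stability under the block, at p under 0.01 or without 1 array, where 0, 0 and 0 to 2 of all genes passed. At an unadjusted p under 0.05, the lower count was 8 with the trend, 9 under median centring and 7 among brighter genes, and the higher count 1 under median centring; at p under 0.01 there was 1 in each direction. Leaving out 1 array gave 1 to 3 higher and 1 to 5 lower.

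The median of complex IV was −0.029 with array weights, −0.040 under median centring, 0.0072 under cyclic loess and −0.041 without assembly factors, and −0.038 to 0.016 leaving out 1 array; the cause was not tested. Cyclic loess also turned the medians of complexes II and III, both −0.017, to 0.0083 and 0.0096. The median of complex II was −0.054 to −0.00011 leaving out 1 array, and that of complex III −0.032 to −0.0038. Over all members it was −0.046 to −0.0099, for complex I −0.072 to −0.028 and for ATP synthase −0.063 to −0.011; these kept their sign in all settings run. Of the 67 genes named by rule, 51 kept their sign in every setting. Signs turned under median centring for Sdhaf3 (−0.012) and Uqcrc2 (−0.025), with array weights for Uqcrc2 (−0.0014) and Ndufa4 (0.00037), and under cyclic loess for Uqcrq (0.010), Cyc1 (0.027), Cox7a2 (0.0096) and Ndufa4 (0.0072). Leaving out 1 array gave both signs for Atp5b (−0.027 to 0.0080), Atp5g3 (−0.036 to 0.012), Atp5o (−0.036 to 0.10), Cox6a2 (−0.0021 to 0.17), Cox6b2 (−0.035 to 0.075), Cox7a2 (−0.14 to 0.034), Cox8c (−0.066 to 0.038), Cyc1 (−0.031 to 0.0075), Cycs (−0.080 to 0.28), Ndufa4 (−0.022 to 0.016), Ndufa4l2 (−0.029 to 0.18), Sdhaf2 (−0.021 to 0.082), Sdhaf3 (−0.12 to 0.13), Sdhc (−0.040 to 0.14), Uqcrc2 (−0.032 to 0.033) and Uqcrq (−0.10 to 0.070). None of these genes passed in any setting. Myc passed among genes at or above the median gene, with a difference of 0.36 and an adjusted p of 0.0487 in limma.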

Other observations

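Of the pseudogene names left out, Ndufs5-ps, annotated as a transcribed pseudogene, was at 5.92, 5.91 and 6.00 in control arrays and 6.10, 6.56 and 6.26 in the arrays labelled as Myc knockout. All 3 values of the knockout group lay above the control arrays (log2 difference 0.37 ± 0.12, limma's adjusted p = 0.247). Uqcrh-ps1 and Atp5c1-ps lay under the lower quartile of the arrays in both groups, with group means of 1.40 to 1.71 and 1.62 to 1.65.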
